A study of Mus musculus with 5 samples.

Results

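The regions described here are H3K9me3 islands of untreated mouse embryonic stem cells (ESCs) that lay within H3K36me3 and had no H3K9me3 island over them after L-proline. They were chosen by their measured islands: an autosomal H3K9me3 island of ESCs was taken when it overlapped an ESC H3K36me3 island by 1 bp or more and no H3K9me3 island of L-proline-induced cells (PiCs). There were 790 such islands among 17697 autosomal H3K9me3 islands of ESCs, and among 73415 islands in the 4 lists of the series. They are called ESC-only double-marked islands below. Both properties that chose them, the touch with ESC H3K36me3 (8.07% of the autosomal ESC H3K9me3 islands) and the lack of a PiC H3K9me3 island (21.1%), are given as a description and support nothing.

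All libraries came from wild-type TBV2 ESCs of strain 129/SvP, grown with leukemia inhibitory factor in medium that lacked non-essential amino acids. Cells were plated sparsely on gelatin without feeders for 5 days, either with no addition (ESCs) or with 500 µM L-proline (PiCs). Chromatin immunoprecipitation with sequencing (ChIP-seq) was done for H3K9me3 and for H3K36me3 in each condition, and an input library of untreated cells was not analysed here. Each mark and condition had 1 library from 1 cell line, so no difference between ESCs and PiCs has a replicate check and no p-value is given. Intervals in brackets are exact 95% binomial intervals over islands. They cover counting error only, and neighbouring islands or islands of 1 host are not independent.

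H3K9me3, trimethylation of lysine 9 on histone H3, is laid down by enzymes of the SUV39H and SETDB1 families, bound by HP1 proteins, and best known from silent repeats and heterochromatin. H3K36me3, trimethylation of lysine 36, is laid down by SETD2 as it travels with elongating RNA polymerase II, and so marks the bodies of transcribed genes. The marks usually lie apart, and the exons of KRAB zinc finger genes are a known setting in which they meet. Genes are not named for the regions below, because the islands are on mouse build mm9 and the gene table at hand is of GRCm38.p6. For the same reason no sequence is printed.

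At the ESC-only double-marked islands, the PiC lists mostly held H3K36me3 and, by the rule, no H3K9me3. An H3K36me3 island of PiCs, which played no part in choosing the regions, overlapped 751 of the 790 (95.1%, interval 93.3 to 96.5). Over all autosomal ESC H3K9me3 islands, of which 8.07% touched ESC H3K36me3, the same share was 12.3%. The rule, however, placed each of the 790 in ESC H3K36me3. PiC H3K36me3 touched 90.0% of all 11971 autosomal ESC H3K36me3 islands, so a high share follows largely from the rule. The closest class for comparison is the 638 ESC H3K9me3 islands that also lay in ESC H3K36me3 and did have a PiC H3K9me3 island, called kept double-marked islands. PiC H3K36me3 overlapped 593 of these (92.9%, 90.7 to 94.8), and the 2 intervals overlap. ESC-only H3K9me3 islands outside ESC H3K36me3 numbered 2942, and PiC H3K36me3 touched 8.74% of them (7.74 to 9.81). PiC H3K36me3 thus overlapped most double-marked ESC islands, with or without a PiC H3K9me3 island.

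**Figure D1:**
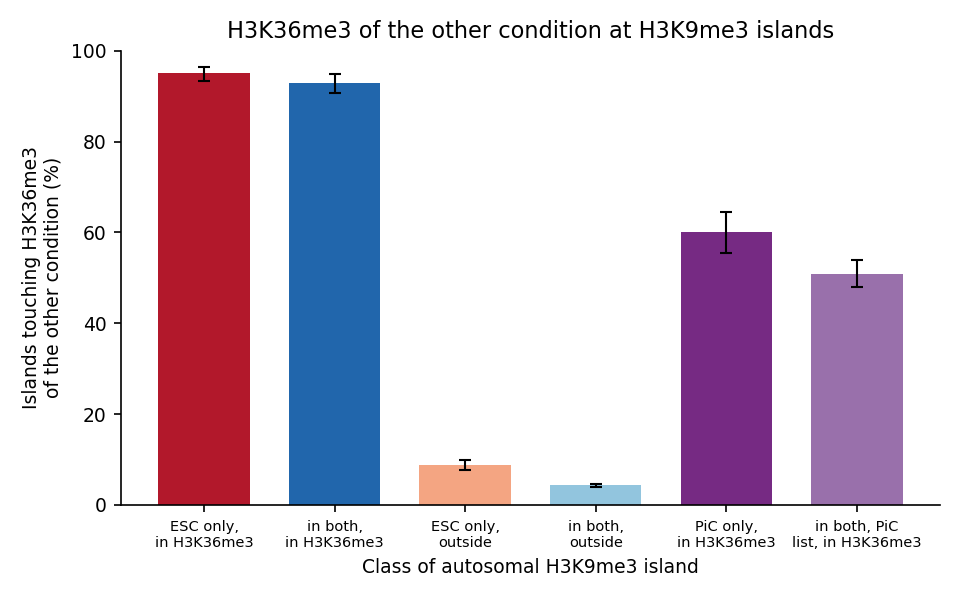
Share of autosomal H3K9me3 islands that touch an H3K36me3 island of the other condition, by class, with exact 95% binomial intervals over islands as error bars (1 library per mark and condition). The first 4 bars are ESC islands set against PiC H3K36me3, the last 2 are PiC islands set against ESC H3K36me3. ESC-only double-marked islands reach 95.1%, and the PiC-only counterpart 60.0%. The double-marked islands found in both conditions reach 92.9% in the ESC list and 50.9% in the PiC list.

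Counted by bases, ESC H3K36me3 lay over 83.1% of the 2.98 Mb in the ESC-only double-marked islands, and PiC H3K36me3 over 85.7%. In the kept double-marked islands these values were 78.9% and 82.7%. The H3K36me3 cover was the same length in both conditions at 532 of the 790, longer in PiCs at 177 and shorter at 81. Of these, 498 (63.0%, 59.6 to 66.4) lay wholly under H3K36me3 in both conditions, against 306 of 638 (48.0%, 44.0 to 51.9) in the kept class. Among the 258 that were only partly under ESC H3K36me3, PiC H3K36me3 covered more in 177 (68.6%, 62.6 to 74.2) and the whole island in 88. The kept class was similar, with 169 of 275 such islands covered more (61.5%, 55.4 to 67.2) and 86 wholly covered. Over all 638 kept islands, cover was longer in PiCs at 169 and shorter at 117.

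The remaining 39 of the 790 (4.94%, 3.53 to 6.69) had no PiC H3K36me3 over them either. Of these, 25 lay within 10 kb of a PiC H3K36me3 island, and for 21 the ESC H3K36me3 island that held them was itself touched by PiC H3K36me3 elsewhere along its length. The other 18 lay in ESC H3K36me3 islands that met no PiC H3K36me3 island. The farthest from PiC H3K36me3 lay on chromosome 2 (21909601 to 21917400), with 209 H3K9me3 tags in 7.80 kb. Its nearest PiC H3K36me3 island was 836 kb away, while a PiC H3K9me3 island lay 2.00 kb away. The ESC H3K36me3 island under it spanned 4.40 kb (21912801 to 21917200) at 44.1 tags per kb, where autosomal ESC H3K36me3 islands had a median of 71.7.

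The opposite class held fewer islands. A smaller share of them touched H3K36me3 of the other condition, as was also so for kept islands of the PiC list. Autosomal PiC H3K9me3 islands that lay in PiC H3K36me3 and had no ESC H3K9me3 island numbered 458. They stood beside 1090 in PiC H3K36me3 that had one, so they were the smaller part. Over all 24422 autosomal PiC H3K9me3 islands, 45.0% had no ESC counterpart. In the ESC list, 790 stood beside 638 and were the larger part, where 21.1% of all had no PiC counterpart. ESC H3K36me3 touched 275 of the 458 (60.0%, 55.4 to 64.6), against 3.74% of all autosomal PiC H3K9me3 islands. This interval lies below that of the 95.1% found for ESC-only double-marked islands. The share of all PiC H3K36me3 islands touched by ESC H3K36me3 is not given here, so the 60.0% lacks the base rate given for the 95.1%. The PiC islands in PiC H3K36me3 that did have an ESC H3K9me3 island gave 50.9% (47.9 to 53.9), against 92.9% for the kept class of the ESC list. The gap between the 2 lists was therefore not particular to islands of 1 condition only. By bases, ESC H3K36me3 covered 50.6% of the 458 PiC-only islands, whereas PiC H3K36me3 covered 85.7% of the ESC-only class. For the kept classes these values were 38.9% in the PiC list and 82.7% in the ESC list.

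The ESC-only double-marked islands were sparse in H3K9me3 tags. Their tags per kb ran from 9.58 to 65.0 with a median of 15.0, and 80% of them lay between 11.9 and 24.5. The median was 31.2 tags per kb in kept double-marked islands, with ESC-only islands outside H3K36me3 at 18.2 and islands outside H3K36me3 that were also in PiCs at 27.2. Of the 790, 69 reached the median of the autosomal ESC list, 25.6, and 624 (79.0%) fell in its lowest quartile. In absolute terms they held 22 to 234 tags, with a median of 51. These values come from the ESC library and are part of the contrast that chose the regions, so they describe the class and are not tested.

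**Figure D2:**
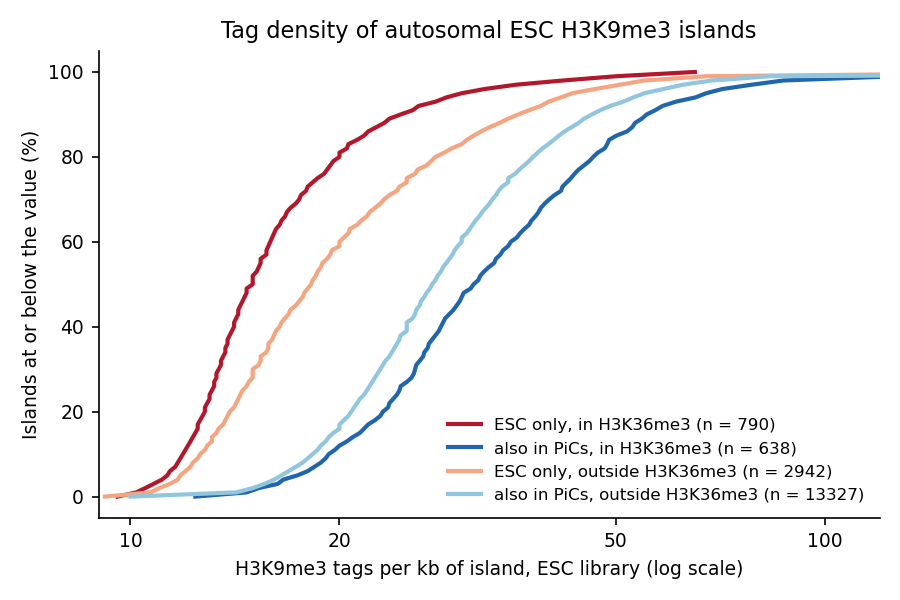
Cumulative share of autosomal ESC H3K9me3 islands (vertical axis, %) at or below a given tag density (horizontal axis, tags per kb, log scale, shown to 120), for 4 classes split by H3K36me3 in ESCs and by a PiC H3K9me3 island. The ESC-only double-marked curve lies farthest to the left, with its median at 15.0 tags per kb against 31.2 for the kept double-marked islands.

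The median width of the ESC-only double-marked islands was 3.60 kb against 2.60 kb for all autosomal ESC H3K9me3 islands. Their range ran from 0.400 to 14.2 kb. Kept double-marked islands had a median width of 3.20 kb but a higher upper decile, 7.20 kb against 5.80 kb. The lowest density in the list falls with width, so densities were compared within width classes. At 2 to 4 kb, where 372 of the 790 lay, the median came to 15.7 tags per kb, set beside 10.8 for the lowest island of the list and 28.5 for the kept double-marked islands. At 4 to 6 kb the 251 islands had a median of 13.2 where the list began at 9.58, and the kept class had 29.8. At 6 kb and over, the 76 islands had a median of 13.6 against 34.2. In each of these classes they sat near the low end of what had been called, at about the density of ESC-only islands outside H3K36me3 (16.5, 13.6 and 13.3). Below 2 kb the 91 islands had a median of 26.4 against 35.0 for the kept class.

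H3K9me3 islands within H3K36me3 lacked a PiC counterpart more often than islands outside it in 3 of 4 density classes. The comparison splits the autosomal ESC list into quartiles by tags per kb. In the sparsest quartile, up to 19.6 tags per kb, 624 of 692 islands within ESC H3K36me3 had none in PiCs (90.2%, 87.7 to 92.3). Outside ESC H3K36me3 this was 1714 of 3725 (46.0%, 44.4 to 47.6). In the next quartile the shares were 45.3% (38.5 to 52.3) and 12.1% (11.2 to 13.2), and in the one after it 18.8% (13.8 to 24.6) and 8.63% (7.81 to 9.52). In the densest quartile, from 33.9 tags per kb, they were 9.21% (6.21 to 13.0) and 8.59% (7.75 to 9.49), and the intervals overlapped. The quartiles do not match density or width exactly. In the sparsest, islands within H3K36me3 had a median of 14.3 tags per kb and 3.80 kb, and those outside 16.5 tags per kb and 3.20 kb. In the next the medians were 22.5 and 22.6 tags per kb, both at 2.60 kb. In the third they were 28.7 and 29.1 tags per kb, at 2.80 and 2.20 kb. The densest had 45.0 and 42.0 tags per kb, at 2.80 and 1.60 kb.

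**Figure D3:**
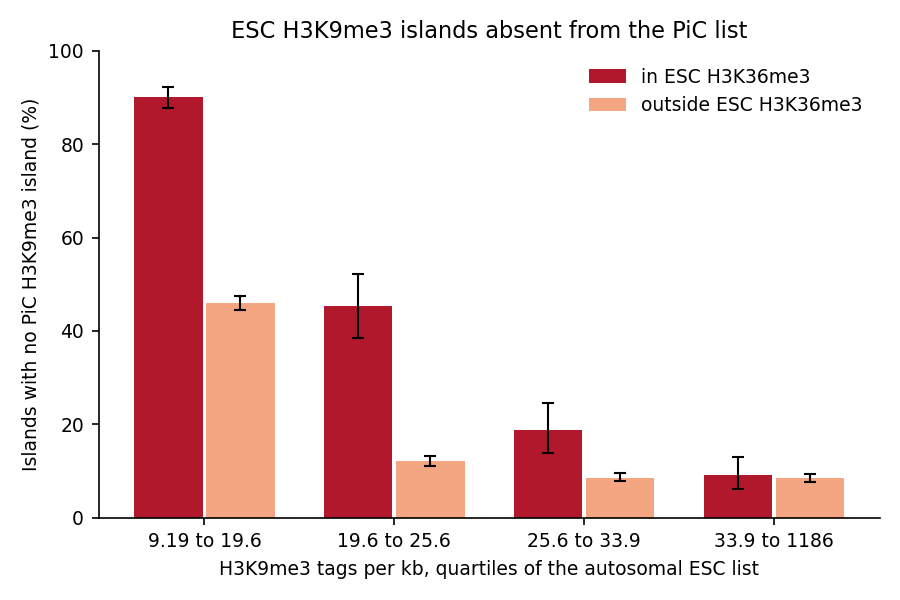
Share of autosomal ESC H3K9me3 islands with no PiC H3K9me3 island (vertical axis, %), by quartile of tags per kb in the ESC list (horizontal axis), within and outside ESC H3K36me3. Error bars are exact 95% binomial intervals over islands, from 1 library per condition. The share within H3K36me3 falls from 90.2% to 9.21%, and lies above the share outside in the 3 sparser quartiles.

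This split uses the same contrast that chose the regions and is a description of it. Leaving out chromosome 15 gave 89.6% and 43.5% in the sparsest quartile. PiC H3K36me3 overlapped 96.2% of the ESC-only double-marked islands in the sparsest quartile (600 of 624), 91.8% in the second (89 of 97), 85.4% in the third (35 of 41) and 96.4% in the densest (27 of 28). The H3K9me3 islands held 1511058 tags in the ESC list and 3514489 in the PiC list, which are not scaled to each other. The lowest tag density of an autosomal H3K9me3 island was 9.19 per kb in the ESC list and 13.9 in that of PiCs. The part of this difference between the lists in the absence of sparse islands from the PiC list was not tested.

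Most ESC-only double-marked islands lay wholly inside an H3K36me3 host. Of the 790, 532 (67.3%, 63.9 to 70.6) were wholly inside 1 host, 248 crossed an edge and 10 covered the whole host. In the kept class 363 of 638 (56.9%, 53.0 to 60.8) were wholly inside and 34 covered the host. Among those inside, the nearer edge was a median of 3.60 kb away, against 2.20 kb for the kept class. At least 1 kb separated 85.3% of them from both edges (82.0 to 88.2), and 70.0% of the kept ones (65.0 to 74.6). The hosts of the ESC-only islands were wider, with a median over islands of 18 kb against 14 kb, and edge distances were not scaled to host width. When the host was divided into 3 equal parts, the centre fell in the middle part for 31.1% of the ESC-only islands whose centre was inside the host (27.7 to 34.7) and for 31.2% of the kept ones (27.4 to 35.3). An ESC-only island took up a median of 16.3% of its host.

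The hosts were 700 autosomal ESC H3K36me3 islands, wider and denser than the rest. Their median width was 16.5 kb against 12.6 kb for the 11271 that held none, and their median density was 94.9 H3K36me3 tags per kb against 70.5. A wider island offers more room for an H3K9me3 island to touch it, and the classes were not matched on width. PiC H3K36me3 touched 682 of the 700 hosts (97.4%, 96.0 to 98.5), where the share over all 11971 autosomal ESC H3K36me3 islands was 90.0%. It covered 92.4% of host bases and 83.4% of the bases of islands without a member. Hosts of kept islands that held no ESC-only one gave 96.6% (94.7 to 98.0) and 87.2% of bases. In the PiC library the median density was 77.9 tags per kb for H3K36me3 islands met by hosts and 56.6 for those met by islands without a member. The median log2 ratio of PiC to ESC tags per kb, which is unscaled between libraries, was -0.41 in hosts and -0.52 in the islands without a member. In islands with kept double-marked sites and no ESC-only one it was -0.40, close to that of the hosts.

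The balance between ESC-only and kept islands, a split made by the rule, shifted with the H3K36me3 density of the host, a value it did not use. Hosts were split at the quartiles of autosomal ESC H3K36me3 islands. In the sparsest hosts, up to 50 H3K36me3 tags per kb, 96 of 224 double-marked islands were ESC-only (42.9%, 36.3 to 49.6). The share was 49.3% (43.9 to 54.7) and 52.9% (47.9 to 57.8) in the middle quartiles. In the densest, from 121 tags per kb, it was 311 of 456 (68.2%, 63.7 to 72.5). Without chromosome 15 the 4 shares were 41.2%, 46.9%, 49.6% and 65.3%. Per Mb of H3K36me3, from the sparsest to the densest hosts, kept islands numbered 3.79, 3.92, 2.66 and 1.86, and ESC-only ones 2.84, 3.81, 2.98 and 3.99. The share was thus highest where kept islands were fewest per Mb, while the number of ESC-only islands per Mb followed no steady order.

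**Figure D4:**
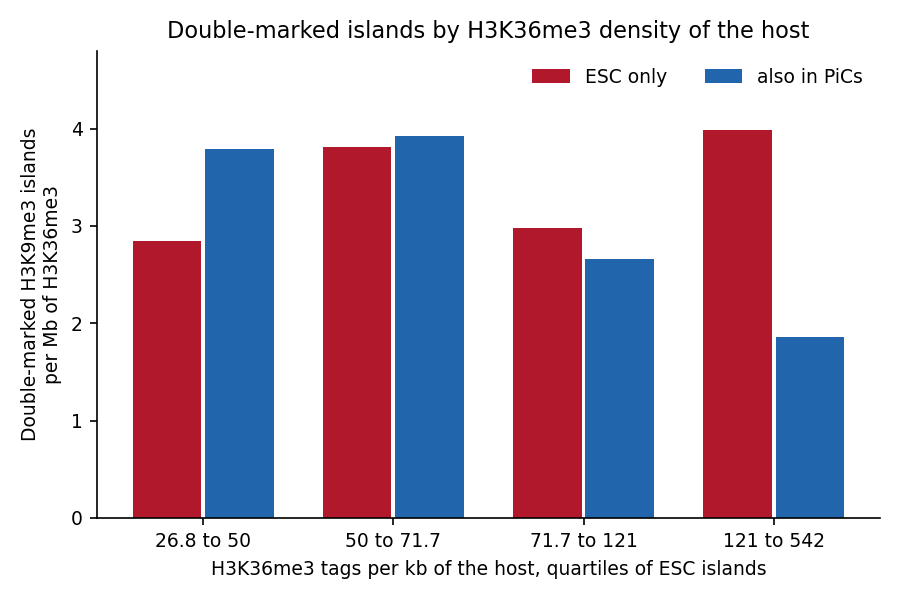
Number of double-marked ESC H3K9me3 islands per Mb of ESC H3K36me3 (vertical axis), by quartile of the host's H3K36me3 tags per kb (horizontal axis), for islands found in ESCs only and islands also found in PiCs (1 library per mark and condition, no error bars). In the densest hosts ESC-only islands reach 3.99 per Mb and kept ones 1.86 per Mb.

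H3K9me3 density was also set against the H3K36me3 density of the host. Across the 790 islands, Pearson's r of the log2 densities was -0.05 and Spearman's rho -0.07, as a description, since islands of 1 host share the host value and all share the same 2 libraries. The median H3K9me3 density of ESC-only islands was 15.0, 15.4, 15.0 and 14.5 tags per kb from the sparsest to the densest hosts.

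Most hosts held 1 ESC-only island (628 of 700), while 60 held 2 and 12 held 3 to 5. The host on chromosome 15 at 98662401 to 98699800 held 5 in 37.4 kb, with 13.0 to 25.6 H3K9me3 tags per kb, and they covered 52.4% of it. This host was dense in H3K36me3, with 324 tags per kb (ESCs) and 225 (PiCs), and PiC H3K36me3 covered 98.9% of it. The host on chromosome 1 at 120728601 to 120948800 also held 5, which were 1.80 to 2.60 kb wide and covered 5.18% of its 220.2 kb. A 47.6 kb host on chromosome 8 at 123064001 to 123111600 held 4, with 10.2 to 14.3 tags per kb, and another on chromosome 15 at 81997401 to 82036800 held 4 as well. PiC H3K36me3 overlapped every ESC-only island in these 4 hosts, and none of the hosts held a kept double-marked island.

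The widest ESC-only double-marked islands included 2 that touched H3K36me3 only at an edge. They lay on chromosome 15 at 79336601 to 79350800 (14.2 kb, 207 tags) and at 75821801 to 75835800 (14.0 kb, 227 tags), and ESC H3K36me3 covered 2.82% and 5.71% of them. The third widest, on chromosome 4 at 155542601 to 155554200, was wholly inside H3K36me3 in both conditions. It held 234 tags, the most of all 790, over 11.6 kb (20.2 per kb), inside a host with 182 H3K36me3 tags per kb, and its nearest PiC H3K9me3 island was 3.20 kb away. The next were on chromosome 1 at 191729601 to 191740800 (11.2 kb, 11.2 tags per kb) and on chromosome 11 at 120673001 to 120683600 (10.6 kb, 12.4 tags per kb). The latter sat wholly in H3K36me3 in both conditions, in a host with 369 tags per kb. Among the 5 with the most tags was also chromosome 1 at 72383601 to 72390600, with 208 tags in 7.0 kb, well inside a 98.8 kb host and 52.8 kb from PiC H3K9me3.

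The densest ESC-only double-marked islands of at least 2 kb exceeded the list median of 25.6 tags per kb. The first, on chromosome 17 at 23955401 to 23958600, held 187 tags in 3.20 kb (58.4 per kb), and a PiC H3K9me3 island lay 1.20 kb from it. The next were chromosome 13 at 38038801 to 38041000 (35.9 tags per kb), chromosome 10 at 67559001 to 67561400 (35.4), chromosome 14 at 55126201 to 55130800 (32.8) and chromosome 5 at 115251601 to 115255600 (32.2). PiC H3K36me3 covered all 5 in full, while PiC H3K9me3 lay 16.0 to 70.6 kb from the last 4.

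The nearest PiC H3K9me3 island was a median of 84.0 kb away from an ESC-only double-marked island, with quartiles of 35.5 and 165 kb. For ESC-only islands outside H3K36me3 the median was 43.6 kb. Within 10 kb lay 57 of the 790 (7.22%, 5.51 to 9.25), against 630 of 2942 outside H3K36me3 (21.4%, 19.9 to 22.9). These distances are to the list that the rule used, and the rule sets each above 0. It also places the 790 in ESC H3K36me3, which only 3.74% of autosomal PiC H3K9me3 islands touched. By bases, 6.0% of autosomal PiC H3K9me3 lay under PiC H3K36me3. The contrast with islands outside H3K36me3 is thus not free of the rule and is a description. The most remote of the 790 lay on chromosome 11 at 60025201 to 60027800, 1080 kb from PiC H3K9me3. On chromosome 19, islands at 47388001 to 47391600 and 47463801 to 47468800 were 872 and 795 kb away, and PiC H3K36me3 covered 100% and 84.0% of them. Those on chromosome 11 at 75263601 to 75267000 and chromosome 5 at 120576201 to 120581200 were 693 and 685 kb away.

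At the limits of the rule, the members nearest to a PiC H3K9me3 island lay 0.400, 0.600 and 0.800 kb from it, on chromosome 6 at 39412401 to 39416400, chromosome 2 at 156852601 to 156855400 and chromosome 7 at 49829801 to 49833000. They held 13.2, 15.4 and 28.4 tags per kb. A further member, on chromosome 8 at 119409601 to 119414000 (21.1 tags per kb), also lay 0.800 kb away. Just outside, 4 kept islands overlapped PiC H3K9me3 by 200 bp, such as chromosome 1 at 8939201 to 8940000 (48.8 tags per kb) and chromosome 6 at 116196601 to 116198400 (30.0). Another of the 4, on chromosome 3 at 90968401 to 90968600, was only 0.200 kb wide, so PiC H3K9me3 covered all of it. For the other condition, 8 members touched ESC H3K36me3 over 200 bp, among them chromosome 2 at 26212601 to 26216400 (13.7 tags per kb), chromosome 4 at 135102601 to 135106200 (13.1) and chromosome 8 at 120126601 to 120129400 (16.4). A further 9 ESC-only islands abutted ESC H3K36me3 with no overlap, such as chromosome 2 at 168567801 to 168569600 (22.8 tags per kb).

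Chromosome 15 held more ESC-only double-marked islands than any other autosome, 128 of the 790 (16.2%). Relative to the ground available, it had 12.6 per Mb of ESC H3K36me3, where the other autosomes ran from 0.822 on chromosome 6 to 5.72 on chromosome 10 and the median of all 19 was 2.74. Kept double-marked islands did not share this excess, with 3.83 per Mb on chromosome 15 and a median of 3.05. Chromosome 1 came second in number with 100 ESC-only islands, followed by chromosomes 11 (68), 5 (66) and 10 (58).

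The ESC-only share of double-marked islands differed widely between chromosomes. It was 30 of 34 on chromosome 19 (88.2%, 72.5 to 96.7), 128 of 167 on chromosome 15 (76.6%, 69.5 to 82.8) and 68 of 94 on chromosome 11 (72.3%, 62.2 to 81.1). At the other end it was 9 of 37 on chromosome 6 (24.3%, 11.8 to 41.2), 6 of 22 on chromosome 18 (27.3%, 10.7 to 50.2) and 11 of 38 on chromosome 13 (28.9%, 15.4 to 45.9). Over all autosomes it was 55.3% (52.7 to 57.9). Chromosomes 15 and 11 also had the highest shares of all their ESC H3K9me3 islands without a PiC counterpart, at 40.3% and 33.9%, and chromosome 19 followed with 32.2%. PiC H3K36me3 overlapped 84.6% to 100% of the ESC-only double-marked islands of each chromosome.

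**Figure D5:**
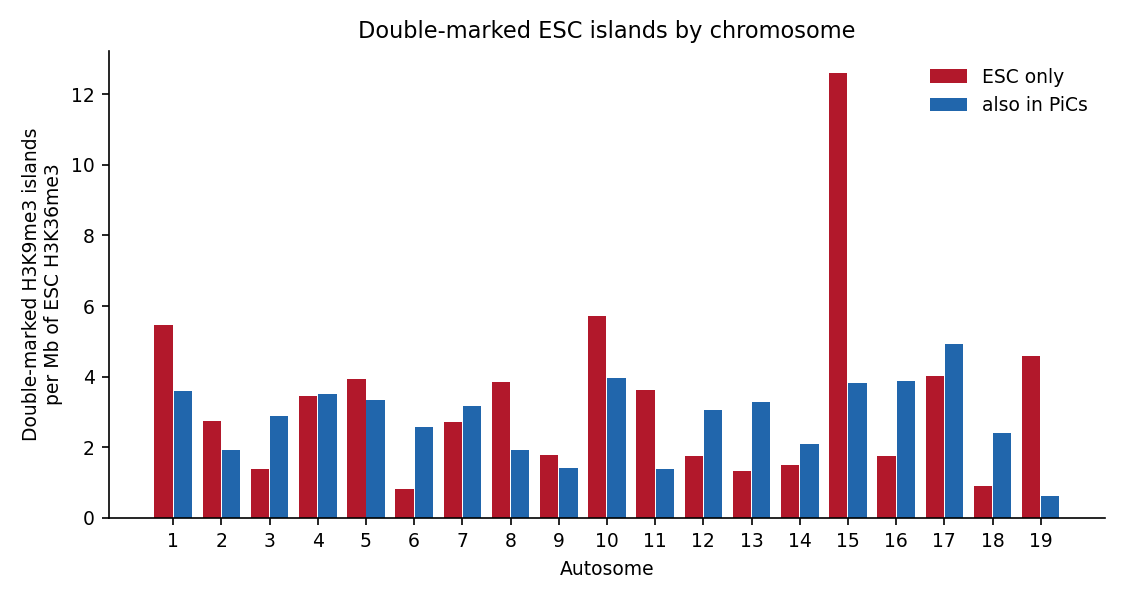
Number of double-marked ESC H3K9me3 islands per Mb of ESC H3K36me3 (vertical axis) on each autosome (horizontal axis), for islands found in ESCs only and islands also found in PiCs (1 library per mark and condition, no error bars). Chromosome 15 stands at 12.6 per Mb for ESC-only islands and at 3.83 for kept ones.

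On chromosome 15 nearly all of these islands lay past 75 Mb, a point chosen with the values known. There, 120 ESC-only double-marked islands stood beside 20 kept ones (85.7% ESC-only, 78.8 to 91.1), at 21.4 per Mb of H3K36me3. Before it there were 8 beside 19 (29.6%, 13.8 to 50.2), at 1.75 per Mb. H3K9me3 islands outside H3K36me3 differed across this point in the same direction, with 249 ESC-only beside 159 kept past it (61.0% ESC-only, 56.1 to 65.8) and 69 beside 463 before it (13.0%, 10.2 to 16.1). Of the 120, PiC H3K36me3 overlapped 113, and their median of 15.0 H3K9me3 tags per kb was that of the whole class. The 3 windows of 5 Mb with the most members were all here, chosen after their counts were seen. From 75000001 to 80000000 there were 44 with 2 kept, from 80000001 to 85000000 there were 26 with 3 kept, and from 95000001 to 100000000 there were 25 with 8 kept. Outside H3K36me3 the same windows held 58 ESC-only and 22 kept islands, 47 and 34, and 53 and 34, in that order. The next window, on chromosome 11 from 115000001 to 120000000, held 21 with 1 kept. On chromosome 10 the window from 75000001 held 16 with 3 kept, and that from 80000001 held 17 with 13 kept.

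Over all autosomes, chromosome 15 included, the 790 islands fell into 204 windows of 5 Mb, and 30 of these windows held at least 50% of them. Another ESC-only double-marked island lay within 50 kb for 326 of the 790 (41.3%, 37.8 to 44.8), and the median distance to the nearest was 103 kb. For kept double-marked islands, 36.7% had another kept one within 50 kb (32.9 to 40.5), and the 2 intervals overlap. Kept double-marked islands were closer together at short range, with 18.7% of them within 2 kb of another (15.7 to 21.9) against 7.59% of the ESC-only ones (5.85 to 9.67).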

How the data were processed

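ChIP-seq for 2 histone marks in TBV2 ESCs and PiCs gave 4 island lists, 1 per library. Per the submitters' processing notes, SICER called the islands, on build mm9. What the sources used here do not give is its version, its thresholds, the aligner and the use of the input. The authors deposited a whole number per island, taken here as an unscaled count of tags, the layout of SICER lists. Lists held 1511058 (ESC) and 3514489 (PiC) H3K9me3 tags, and 26055650 and 15787192 H3K36me3 tags, within islands, so library depth is unknown. All islands lay on a 200 bp grid without overlaps inside a list, and positions are 1-based.

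The members and comparisons were chosen with earlier results of these data known. Islands overlapping by 1 bp counted as touching, and the host was the H3K36me3 island with the longest overlap. Shares carry exact (Clopper-Pearson) intervals. PCR copies are not independent molecules. Regions named are the 5 widest, richest in tags, densest (at least 2 kb) and most remote members. Also named are the hosts with the most members (4, as the third place was tied) and examples on each side of each limit. Python 3.11.15, numpy 2.4.6, pandas 2.3.3 and scipy 1.17.1 were used, and interval functions were tested on simulated data. Alternatives changed the overlap, the distance counted as shared, the lists, the widths, the joining and the chromosomes. Gene annotation and sequences of mm9 were not used here. Gene lists planned for an mm9 annotation were not run.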

Additional observations from a re-analysis of the deposited data

How the results depend on the processing

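No paired analysis was possible because every mark and condition has a single library, which also means that no replicate could be left out. Of 79 values under 9 alternatives, 59 stayed within the interval of the value reported (counts within 1.5 times). With the 50% of each list richest in tags there were 251 members, 90.4% touched PiC H3K36me3, which covered 82.4% of their bases, 72.9% were wholly inside a host, 21.9% lay on chromosome 15, the median width was 4.60 kb and the median density 15.6 tags per kb. With H3K9me3 lists of equal size the median density was 15.3 tags per kb, and 60.7% of double-marked islands were ESC-only. That share was 51.3% when PiC H3K9me3 within 10 kb counted as shared and 52.5% without chromosome 15. Requiring 50% of the island under ESC H3K36me3 gave 76.3% wholly inside and 92.6% of bases under PiC H3K36me3. Taking only ESC islands at or above the median density, an alternative added after the data had been seen, left 69 members with a median width of 1.20 kb. Of these, 89.9% touched PiC H3K36me3, which covered 82.9% of bases and touched 95.6% of hosts, 85.5% were wholly inside, and 13.2% of double-marked islands were ESC-only. The share on chromosome 15 without that chromosome is 0 by construction and the median density among dense islands is set by the choice, so neither is given. Tag counts within islands do not show library depth, so absence from the PiC list is absence of a call and not of the mark.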
